A study of Homo sapiens with 6 samples.

Results

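Chromatin accessibility was described around 10 genes of the platelet cytoskeleton and of focal adhesions: TUBB1, MYH9, MYL9, FLNA, TLN1, VCL, ACTN1, ZYX, PLEK and TPM1. Their sites were those that overlapped the gene body or the 50 kb on either side of it on GRCh38. This gave 241 of the 181135 sites in the deposited table, from 14 around TUBB1 and around MYL9 to 39 around MYH9. The rule uses no measured value. All 241 sites passed the filter on low counts. A promoter site overlapped the 1000 bases on either side of an annotated start of the gene, which held for 11 sites in 8 genes, and the other 230 were distal.

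The data are ATAC-seq libraries, in which a transposase cuts open chromatin and the reads over a site measure its accessibility. The cells were K562, an established human leukaemia line labelled wild type, with 2 libraries after each of 0, 6 and 72 h of exposure to phorbol 12-myristate 13-acetate (PMA) at 25 nM, which acts on protein kinase C and, per the labels, turns these cells towards megakaryocytes. The medium was replaced after 24 h and 48 h, cells were detached with EDTA, and nuclei came from lysis in NP-40, Tween-20 and digitonin. The 0 h libraries are the only controls, and no vehicle or untreated 72 h culture is among the groups used here, so hours in PMA and hours in culture cannot be told apart. In bulk libraries, a change in the share of cells in which a site is open and a change within every cell cannot be told apart either.

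Megakaryocytes release platelets from long extensions that are built on microtubules and pushed out against an actomyosin cortex. TUBB1 encodes the beta-tubulin of the platelet marginal band, and MYH9 and MYL9 encode the heavy chain and a regulatory light chain of non-muscle myosin II. FLNA and ACTN1 encode actin cross-linkers, TPM1 a tropomyosin that lines actin filaments, and PLEK pleckstrin, a main protein kinase C substrate of platelets. Talin (TLN1) activates integrins, vinculin (VCL) ties talin to actin, and zyxin (ZYX) collects at adhesions and stress fibres under tension. Several such genes are known targets of serum response factor, which binds the CArG box.

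Counts over all listed sites ran from 12258890 to 35548737 per library, with the shallowest library at 6 h (replicate 1). The levels below are CPM, counts scaled to the TMM-adjusted library size. The direction of many differences depended on that scaling. Among all 177759 tested sites, the median log2 difference between 72 h and 0 h was 0.29 under TMM, 0.11 under RLE size factors, 0.79 under total counts, −0.04 under loess offsets that remove a trend with site strength, and 1.26 with TMM factors computed on shared peaks only, that is on sites with a peak in each of the 6 libraries. A site called in the same direction under all 5 scalings is described as such. As a check of the cell label, GATA1, TAL1 and TFRC, the 3 of 10 K562 and erythroid markers with a listed start, each had a start site with a peak in both 0 h libraries. The megakaryocyte genes ITGA2B and GP9 had one too, and so did 1 of 2 B and T cell genes with a listed start, CD79A, at 6.78 to 9.94 CPM over the 6 libraries.

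Promoter sequences from RefSeq (GRCh38.p14) were at hand for 12 starts of 9 members. They were searched on both strands, over the 250 bases before the start, for the CArG box and 6 short motifs. The CArG box was found at 2 of the 12 member starts, in FLNA and ACTN1, while 1.18% of 22198 protein-coding promoters held it. The SP/KLF letters GGGCGG were found at 9 of 12, as in 53.7% of all promoters. The ETS letters CCGGAA stood at 2 of 12 (17.9% of all) and the RUNX letters TGTGGT at 1 of 12 (9.36% of all). None of the 12 held the AP-1 letters TGANTCA (5.36% of all), the GATA letters AGATAA (7.09%) or the E-box letters CACGTG (7.37%). These are matches of letters, not measured binding. The 4 sequences below are shown because the accessibility results differ between them: the outermost ACTN1 start lay under a strong site that lost signal, the CArG box before an inner ACTN1 start lay under a faint one, and FLNA and PLEK had no site within 1000 bases of the start in the table as used here. Each runs 5′ to 3′ on the strand of the gene and ends 1 base before the start, with motif matches in capitals.
ACTN1 outermost start, minus strand, chr14:68979303-68979552: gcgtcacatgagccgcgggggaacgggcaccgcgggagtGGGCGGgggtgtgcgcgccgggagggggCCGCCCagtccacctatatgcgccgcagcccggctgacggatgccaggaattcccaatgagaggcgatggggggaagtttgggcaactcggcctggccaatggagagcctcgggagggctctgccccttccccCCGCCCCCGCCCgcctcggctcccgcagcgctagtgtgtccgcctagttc
ACTN1 inner start, minus strand, chr14:68977567-68977816: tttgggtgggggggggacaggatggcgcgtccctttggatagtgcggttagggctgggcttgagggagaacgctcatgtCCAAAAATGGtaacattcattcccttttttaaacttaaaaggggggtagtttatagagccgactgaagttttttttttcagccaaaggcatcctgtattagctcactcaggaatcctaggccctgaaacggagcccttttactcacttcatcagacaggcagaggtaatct
FLNA, minus strand, chrX:154374635-154374884: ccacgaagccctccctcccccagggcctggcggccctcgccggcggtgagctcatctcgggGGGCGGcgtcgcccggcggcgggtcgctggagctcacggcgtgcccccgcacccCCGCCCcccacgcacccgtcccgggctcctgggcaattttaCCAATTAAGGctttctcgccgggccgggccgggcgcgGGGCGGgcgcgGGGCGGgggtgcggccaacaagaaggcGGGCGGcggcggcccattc
PLEK, plus strand, chr2:68365032-68365281: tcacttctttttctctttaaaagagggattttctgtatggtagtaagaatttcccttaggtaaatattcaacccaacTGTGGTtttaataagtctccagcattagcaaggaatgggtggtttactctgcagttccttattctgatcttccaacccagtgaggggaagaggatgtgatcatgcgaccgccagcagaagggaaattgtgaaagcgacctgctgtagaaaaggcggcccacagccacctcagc
In the outermost ACTN1 sequence the capitals are 4 SP/KLF matches, and G and C make up 72.0% of its bases. The 5′ end of the CArG box lay 171 bases before the inner ACTN1 start (48.0% G and C) and 94 bases before the FLNA start (78.4%), where 5 SP/KLF matches stood beside it. PLEK had the lowest share of G and C of the 12 (44.8%), and its RUNX match lay 173 bases before the start.

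Over all 241 sites, 61 were higher and 44 lower at 6 h than at 0 h by edgeR's quasi-likelihood test at a Benjamini-Hochberg adjusted p under 0.05. That is 43.6% of the member sites, where 40.1% of all tested sites were called (23.4% higher and 16.8% lower). At 72 h against 0 h, 77 were higher and 90 lower, or 69.3% called against 67.4% in the whole table (38.2% higher and 29.2% lower). At 72 h against 6 h, 32 were higher and 75 lower, or 44.4% against 42.9% (22.1% higher and 20.9% lower). The shares called were thus near those of the whole table in each comparison. The comparisons with 0 h share the 0 h libraries. The member sites had a median log2 difference of −0.26 at 72 h against 0 h, beside 0.29 over all tested sites, and of −0.03 at 6 h, beside 0.05. The count at 72 h against 6 h changed as single libraries were left out. Without replicate 1 of 72 h it fell to 29.5% of the member sites, and without replicate 2 to 25.7%. Without replicate 2 of 6 h it was 30.7%, and without replicate 1 of 6 h 41.5%. Without replicate 1 or 2 of 0 h it was 45.2% or 46.9%.

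The split into higher and lower moved with the scaling. At 72 h against 0 h, the higher sites made up 46.1% of the called member sites with TMM, 40.5% with RLE, 63.7% with total counts, 37.0% with loess offsets and 79.1% with factors from shared peaks. In the same order, the shares for 6 h against 0 h were 58.1%, 47.1%, 68.4%, 49.5% and 81.6%. For 72 h against 6 h they were 29.9%, 26.9%, 51.1%, 33.8% and 82.1%. Under all 5 scalings, 47 member sites were higher and 18 lower at 6 h than at 0 h, where the whole table had 18.3% and 8.50% of its sites. At 72 h against 0 h these counts were 49 and 24 (28.0% and 9.39% in the whole table), and at 72 h against 6 h 24 and 9 (15.1% and 3.41%).

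The strong promoter sites lost signal on the TMM scale. At 72 h, 6 of the 11 promoter sites were lower than at 0 h, those of MYH9, TLN1, VCL, ACTN1, ZYX and TPM1, and 2 were higher, those of TUBB1 and an inner VCL site, but under loess offsets the MYH9, TLN1, VCL and TPM1 sites were not called and the ZYX site was higher. At 6 h, 3 of the 11 were lower (MYH9, VCL and ACTN1) and 1 higher, the inner VCL site. Among all sites at a protein-coding start, 39.8% were lower and 7.44% higher at 6 h. Between 6 h and 72 h, 7 of the 11 were lower and none higher, beside 68.9% and 4.37% of all sites at a protein-coding start. The counts of the 11 moved with the scaling too. At 6 h, 2 were higher and none lower under loess offsets, and 1 and none under factors from shared peaks. At 72 h against 6 h, loess offsets gave none higher and 1 lower, and factors from shared peaks 2 and 3. The 6 promoter sites that fell at 72 h had peaks in all 6 libraries. In the whole table, 94.1% of sites with peaks in all 6 libraries at a protein-coding start were lower at 72 h on the TMM scale, with a median of −1.36, so the fall of the 6 was shared with nearly all such sites.

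**Figure D1:**
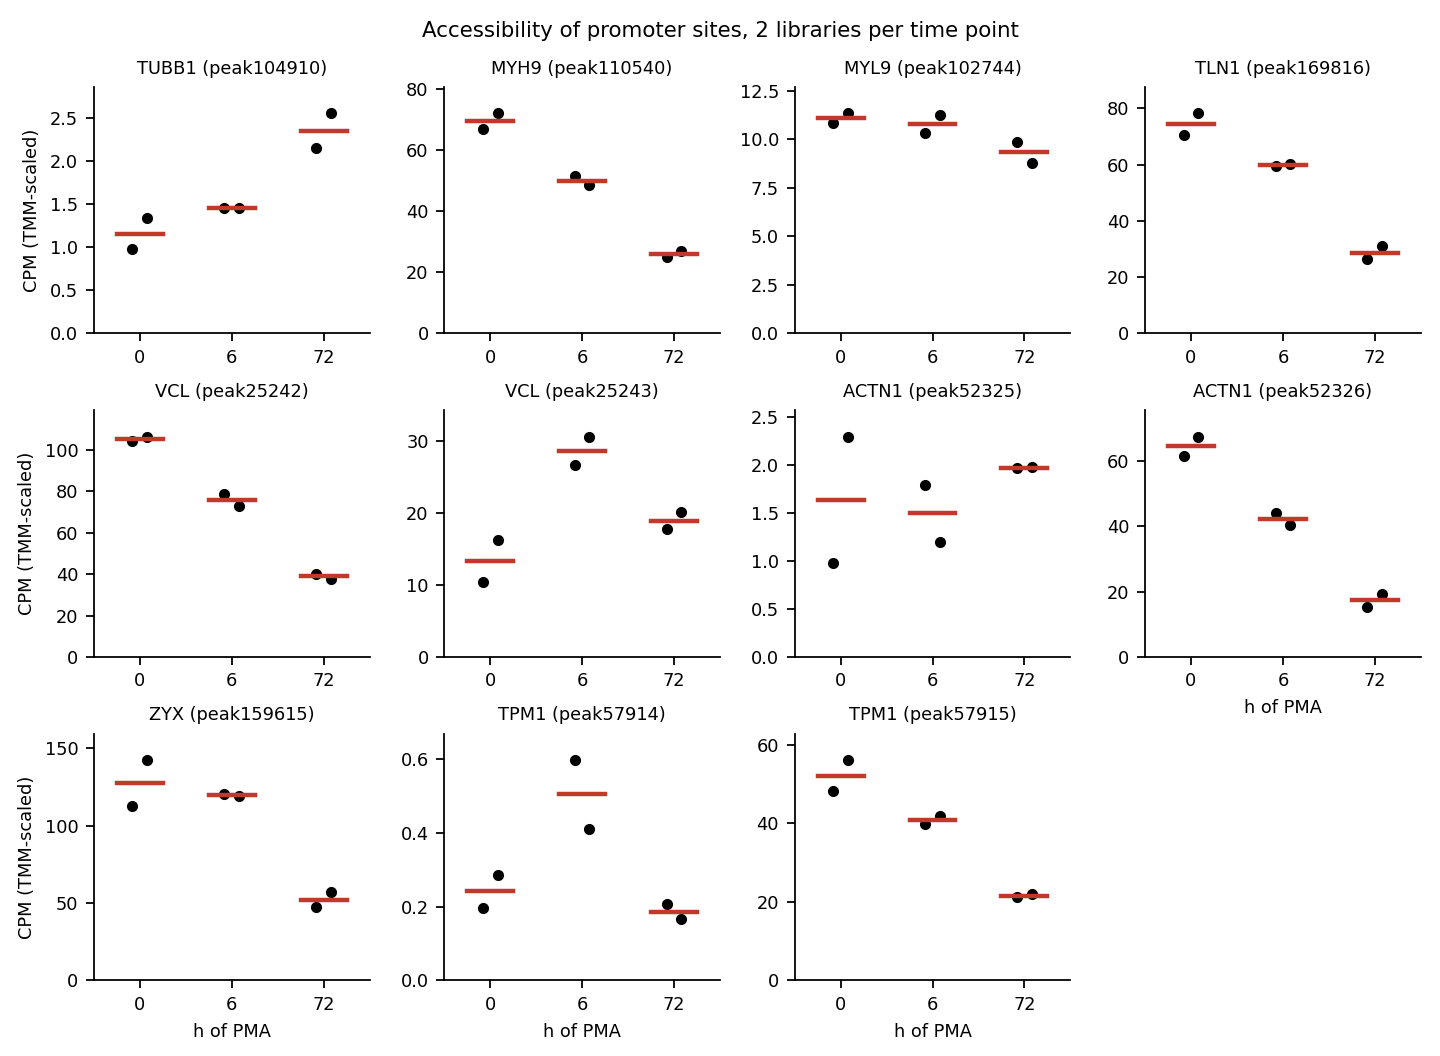
Accessibility of the 11 promoter sites (CPM of the TMM-scaled library size, vertical axis from 0) by hours of PMA. Points are single libraries, 2 per time point, and red lines are their means. On this scale MYH9, TLN1, VCL (peak25242), ACTN1 (peak52326), ZYX and TPM1 (peak57915) were lowest at 72 h, while VCL peak25243 was highest at 6 h.

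ACTN1 had the promoter site with the largest fall, and the only one of the 11 that was lower at 72 h under all 5 scalings. In the whole table, 2894 of the 9456 sites with peaks in all 6 libraries at a protein-coding start were lower under all 5. The ACTN1 site (chr14:68978464-68979863) covers the outermost start. It stood at 61.5 and 67.3 CPM at 0 h, 43.9 and 40.2 after 6 h, and 15.3 and 19.2 after 72 h. Every later library lay below every earlier one. The log2 difference between 72 h and 0 h was −1.90 (SE 0.16, edgeR adjusted p = 1.8e-09), and it ran from −2.08 under RLE to −0.66 under loess offsets. The faint ACTN1 site (chr14:68977639-68977923), which covers the CArG box and lies 73 bases from the inner start, stood at 0.975 and 2.29 CPM at 0 h, against 1.97 and 1.98 at 72 h. Its groups overlapped and it was not called on the TMM scale (log2 0.23, edgeR adjusted p = 0.60).

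The zyxin promoter was the most accessible of the 11 and kept its level at 6 h. Its site (chr7:143379998-143381691) also lies within 1000 bases of the start of FAM131B. It stood at 112.8 and 142.4 CPM at 0 h, 120.7 and 119.1 after 6 h, and 47.5 and 56.9 after 72 h. The 6 h libraries lay between the 0 h libraries, and both 72 h libraries lay below all others. On the TMM scale the log2 difference between 72 h and 0 h was −1.29 (SE 0.14, edgeR adjusted p = 5.9e-08), and under loess offsets the site was called higher at 6 h (0.53) and at 72 h (0.61).

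Around vinculin, 2 neighbouring promoter sites went opposite ways. The site over the start (chr10:73997495-73998597) stood at 104.1 and 106.3 CPM at 0 h, 78.9 and 72.7 after 6 h, and 40.2 and 37.7 after 72 h. The site 1.2 kb into the gene (chr10:73998876-73999781) stood at 10.5 and 16.3 CPM at 0 h, 26.7 and 30.6 after 6 h, and 17.7 and 20.1 after 72 h. It had no peak at 0 h and a peak in each of the 4 PMA libraries. Its rise at 6 h was 1.1 on the log2 scale (SE 0.20, edgeR adjusted p = 0.00012) and was called under all 5 scalings. Its 72 h difference of 0.49 (edgeR adjusted p = 0.029) was lost under RLE, and without 0 h replicate 1 (0.21), 72 h replicate 1 (0.58) or 72 h replicate 2 (0.40). The start site fell by 1.43 at 72 h (SE 0.13, edgeR adjusted p = 7.2e-09), which loess offsets turned to 0.25, not called.

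The myosin promoters differed from each other. The MYH9 site (chr22:36387712-36388713) stood at 66.8 and 71.9 CPM at 0 h, 51.5 and 48.4 after 6 h, and 24.9 and 26.8 after 72 h. It fell by 1.42 on the log2 scale at 72 h (SE 0.14, edgeR adjusted p = 2e-08), and was at −0.05, not called, under loess offsets. Its fall of 0.48 at 6 h lost its call with loess offsets (−0.11) and factors from shared peaks (−0.18), and without 0 h replicate 2 (−0.42) or 6 h replicate 2 (−0.49). The MYL9 site (chr20:36541112-36542461) stood at 10.9 and 11.3 CPM at 0 h, 10.3 and 11.3 after 6 h, and 9.86 and 8.78 after 72 h. The 6 h libraries overlapped those of 0 h, and the 72 h libraries lay below them. Its log2 difference at 72 h was −0.25 (SE 0.20, edgeR adjusted p = 0.26), and it was called higher at 0.72 under factors from shared peaks.

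At the remaining starts the signal was weaker or shared. The talin site (chr9:35731879-35732992), which also covers the start of CREB3, stood at 70.4 and 78.2 CPM at 0 h and 26.6 and 30.9 at 72 h. Its log2 difference of −1.37 at 72 h (edgeR adjusted p = 3.6e-08) became 0.09, not called, under loess offsets. The stronger TPM1 site (chr15:63047879-63049206), 5.8 kb inside the gene at an inner start, stood at 48.2 and 56.1 CPM at 0 h and 21.2 and 21.9 at 72 h, a log2 difference of −1.27 (edgeR adjusted p = 1.7e-07) that was not called under loess offsets (−0.08) or factors from shared peaks (−0.31). The site at the outermost TPM1 start held at most 0.597 CPM in any library and had no peak. The TUBB1 site (chr20:59016481-59016776), 43 bases from the outer start, was faint, with 0.975 and 1.34 CPM at 0 h, 1.45 and 1.46 after 6 h, and 2.15 and 2.55 after 72 h. Both 72 h libraries lay above all others and were the only ones with a peak there. The rise of 1.00 at 72 h (SE 0.36, edgeR adjusted p = 0.018) was lost under loess offsets (0.32) and DESeq2 (0.83), and without 0 h replicate 1 (0.80), 72 h replicate 1 (1.11) or 72 h replicate 2 (0.87). The inner TUBB1 start, whose sequence was searched, had no site within 1000 bases. A stronger site 1358 bases past it, counted as distal, had a mean of 26.6 CPM at 0 h, 26.9 at 6 h and 12.4 at 72 h. Its 72 h difference of −1.09 was not called under loess offsets (−0.34) or factors from shared peaks (−0.13). A distal site 1405 bases upstream of the outer start was higher at 6 h (1.14) and 72 h (0.93) under all 5 scalings.

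**Figure D2:**
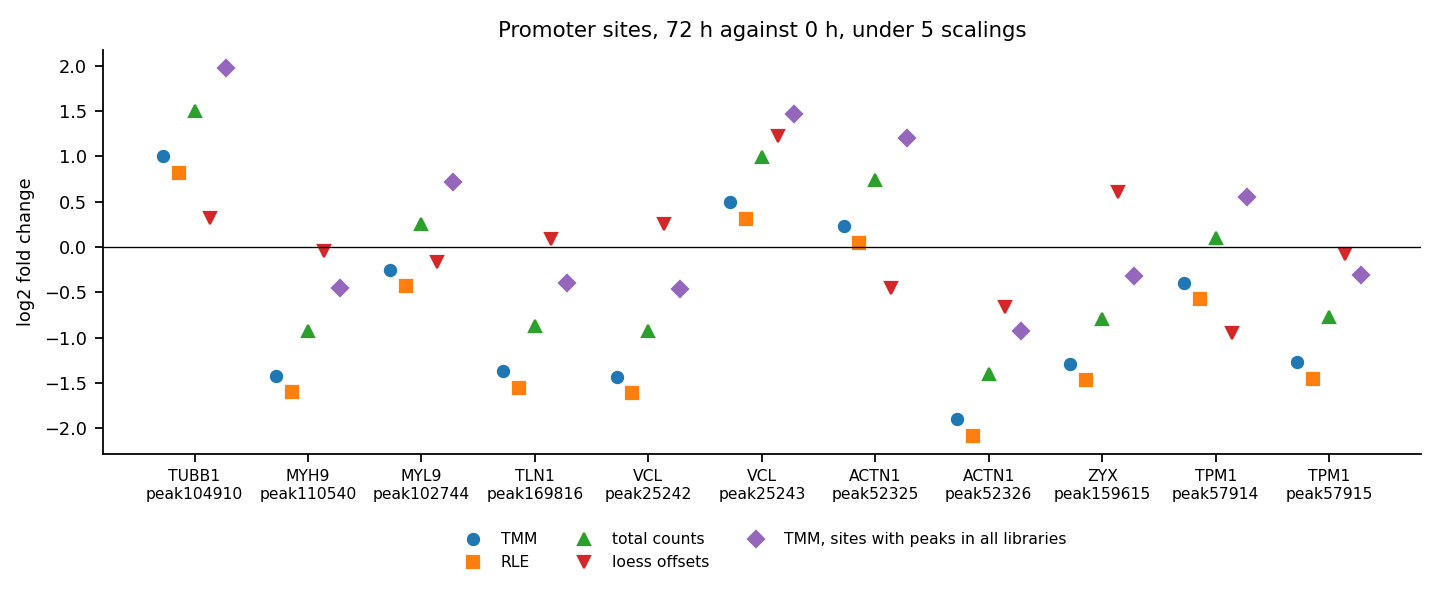
Log2 difference between 72 h and 0 h (vertical axis) of the 11 promoter sites under 5 scalings, 1 symbol per scaling. Only ACTN1 peak52326 was called lower under each of the 5; the ZYX site ran from −1.47 under RLE to 0.61 under loess offsets.

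Among the 230 distal sites, 60 were higher and 41 lower at 6 h than at 0 h; at 72 h, 75 were higher and 84 lower. Under all 5 scalings, 49 distal sites were higher and 23 lower at 72 h. Among the 207 that did not lie at the start of another gene, 34.8% were higher and 33.3% lower at 72 h, beside 40.7% and 25.3% of all tested sites away from protein-coding starts. At 6 h these shares were 27.1% and 16.4%, beside 24.7% and 14.8%. The differences between these shares were not tested. Of the 57 distal sites with peaks in all 6 libraries, 3 were higher and 44 lower at 72 h on the TMM scale, while of the other 173, 72 were higher and 40 lower. In the whole table, 67.8% of sites with peaks in all 6 libraries were lower at 72 h, and 45.4% of the rest were higher. Peaks were called from the same reads, so these groups are not independent of the counts. At 78 distal sites both 72 h libraries had a peak and no 0 h library did, and at 2 sites the reverse held. In the whole table, 70.7% and 72.6% of sites had a peak in the 72 h libraries, beside 31.7% and 35.75% in those of 0 h. The 72 h libraries were also deeper, with 30934990 and 35548737 counts against 17669446 and 24470037 at 0 h. The shares of all sites with these peak patterns were not counted. The start of another gene with a listed start lay within 1000 bases of 23 distal sites, of which 3 were higher and 15 lower at 72 h (65.2% lower, beside 75.7% of all sites at a protein-coding start), and 16 more lay at an end of another protein-coding gene. Of the 191 away from both, 68 were higher and 62 lower at 72 h, with a median of 0.06.

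**Figure D3:**
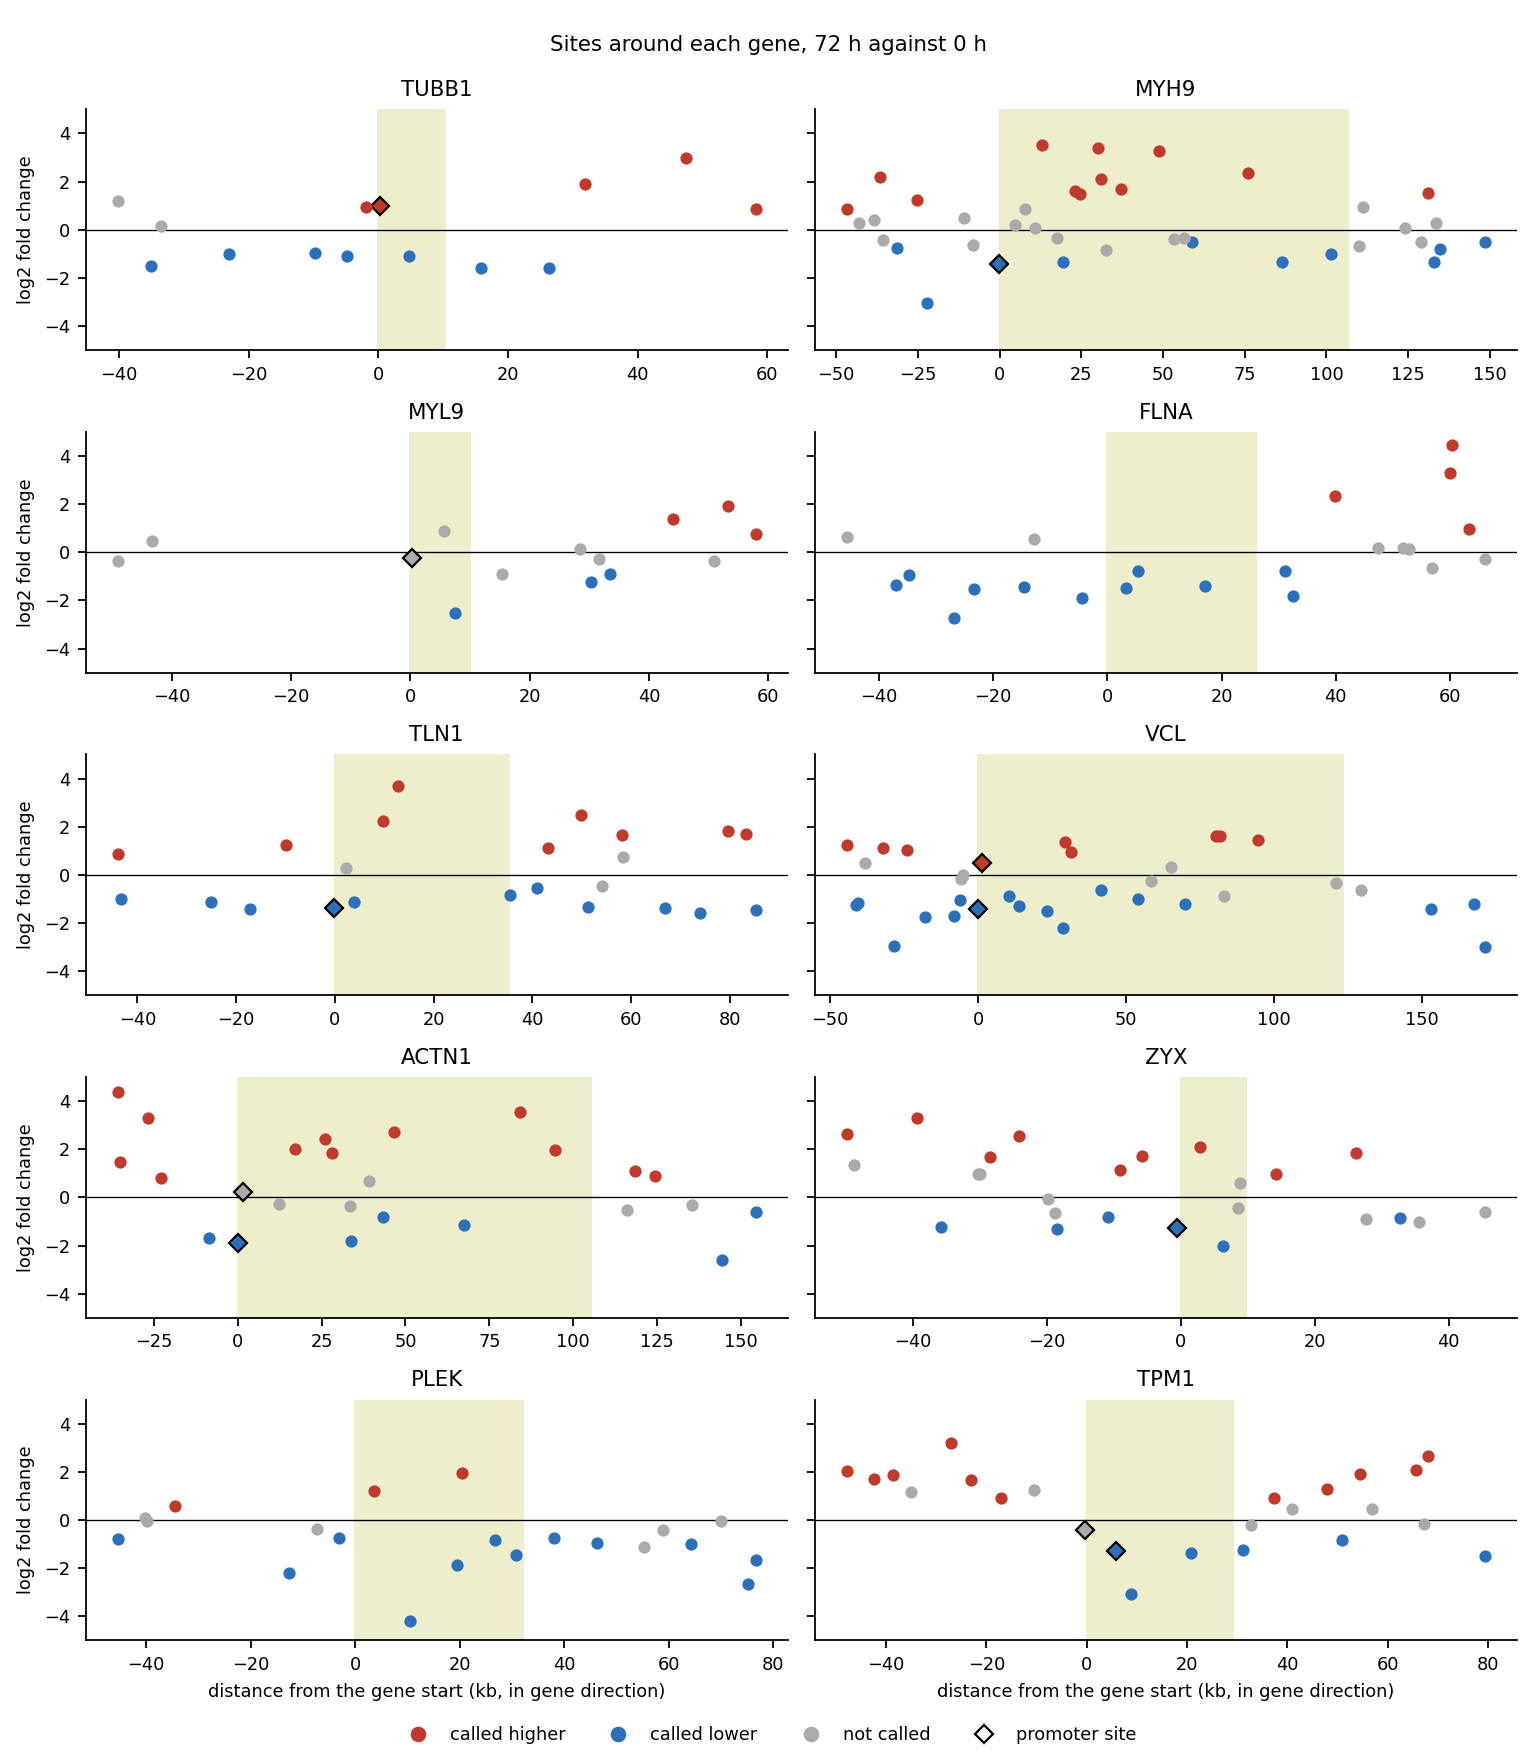
Log2 difference between 72 h and 0 h on the TMM scale (vertical axis) of each site against its distance from the gene start in kb, in the direction of transcription (horizontal axis), 1 panel per gene. Shaded bands are gene bodies, diamonds promoter sites, and red, blue and grey mark sites called higher, called lower and not called. Rising sites lie inside MYH9 and ACTN1 and on both sides of TPM1, while most PLEK sites lie below 0.

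Among all tested sites, 38.2% were higher and 29.2% lower at 72 h (28.0% and 9.39% under all 5 scalings). At 6 h these shares were 23.4% and 16.8% (18.3% and 8.50%), and at 72 h against 6 h 22.1% and 20.9% (15.1% and 3.41%). The counts by gene below were not tested against these shares. Around ACTN1, 12 of 25 sites were higher and 7 lower at 72 h, 8 and 3 of them under all 5 scalings. Its share of higher sites, 48.0%, was next to that of TPM1, 45.8%. The largest 6 h rise named for any member was 26.8 kb upstream of the start (chr14:69005475-69006733), between genes. This site stood at 1.88 and 1.48 CPM at 0 h, 27.8 and 32.2 after 6 h, and 16.4 and 16.8 after 72 h. The groups were far apart. The log2 difference was 4.17 at 6 h (SE 0.23, edgeR adjusted p = 3.2e-11) and 3.31 at 72 h (SE 0.23, edgeR adjusted p = 2.7e-10), each under all 5 scalings. A weaker site 35.7 kb upstream (chr14:69014735-69015358) stood at 0.13 and 0.143 CPM at 0 h, 1.36 and 2.15 after 6 h, and 2.41 and 3.45 after 72 h. Its log2 difference at 72 h was 4.37 (SE 0.54, edgeR adjusted p = 3.9e-07), and rested on 2 and 3 counts in the 0 h libraries.

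Inside the ACTN1 gene, 2 further sites, chosen after their values were seen, rose by 6 h and stayed up. One lay 84.2 kb from the start (chr14:68894633-68895487) at 0.585 and 0.717 CPM at 0 h, 6.74 and 7.59 after 6 h, and 7.07 and 8.54 after 72 h. The other lay 28.0 kb from the start and had peaks in all 6 libraries, at 3.31 and 4.45 CPM at 0 h, 14.6 and 16.4 after 6 h, and 13.4 and 14.5 after 72 h. In both, every PMA library was above both 0 h libraries, and both were called at 6 h and 72 h under all 5 scalings. The largest distal fall named for ACTN1 was 8.6 kb upstream (chr14:68987545-68988235), from 9.49 and 9.61 CPM at 0 h to 2.43 and 3.47 at 72 h, a log2 difference of −1.69 (edgeR adjusted p = 7.1e-06) under all 5 scalings.

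Some sites within the body of MYH9 rose. At 6 h, 14 of its 39 sites were higher (35.9%) and 10 lower (25.6%), beside 23.4% and 16.8% of all tested sites. At 72 h 12 were higher (30.8%) and 10 lower (25.6%), beside 38.2% and 29.2%. Under all 5 scalings these counts were 8 and 5 at 6 h and 9 and 1 at 72 h. The site 30.0 kb from the start (chr22:36357696-36358293) stood at 0.195 and 0.717 CPM at 0 h, 5.88 and 7.12 after 6 h, and 4.94 and 5.40 after 72 h. The site 13.1 kb from the start (chr22:36374520-36375167) stood at 0.325 and 0.861 CPM, then 6.82 and 8.10, then 5.95 and 8.31. At both sites the 6 h and 72 h libraries lay well above the 0 h libraries. The rises at 72 h were 3.39 (edgeR adjusted p = 1.2e-07) and 3.50 (edgeR adjusted p = 3e-08), under all 5 scalings, and they became 4.70 and 4.44 without 0 h replicate 2. The 0 h libraries held only 3 and 15 counts at the first site and 5 and 18 at the second. At the first site the 6 h rise of 3.74 was 3.13 without 0 h replicate 1 and 5.05 without replicate 2. A further site at 23.1 kb, chosen after its values were seen, had 3.71 and 4.30 CPM at 0 h, 12.5 and 13.9 after 6 h, and 11.2 and 13.2 after 72 h. This site was called at both times under all 5 scalings.

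Not every MYH9 site rose. The site 10.7 kb from the start (chr22:36377060-36377559) stood at 2.92 and 1.67 CPM at 0 h, at 0 and 0.443 at 6 h, and at 2.56 and 2.24 at 72 h, so it was lowest at 6 h. Its log2 difference was −2.87 at 6 h against 0 h (SE 0.56, edgeR adjusted p = 0.00028) and 2.96 at 72 h against 6 h (edgeR adjusted p = 0.00014), each under all 5 scalings, and 6 h replicate 1 held no count there, so without 6 h replicate 2 no fold is given. The site at 19.3 kb (chr22:36368252-36369054) fell from 27.6 and 20.9 CPM at 0 h to 9.64 and 11.5 at 6 h and 8.54 and 10.4 at 72 h. Its log2 difference at 6 h was −1.18 (edgeR adjusted p = 7.4e-05), called under all 5 scalings. Its 72 h difference of −1.35 was not called under factors from shared peaks (−0.39).

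MYL9 sites changed least often at 72 h, with 3 higher and 3 lower of 14, 1 and 1 under all 5 scalings, and its share called of 42.9% was below the 67.4% of the whole table; the difference between these shares was not tested. Its named rise was 53.3 kb downstream, at an end of TGIF2 (chr20:36594571-36595081), from 0.325 and 0.526 CPM at 0 h to 2.22 and 1.83 at 6 h and 1.55 and 1.79 at 72 h. The log2 difference was 2.18 at 6 h (edgeR adjusted p = 0.00072) and 1.93 at 72 h (edgeR adjusted p = 0.00074). Its named fall, 30.3 kb from the start in a site without a peak in any library, went from 2.86 and 3.78 CPM at 0 h to 1.11 and 1.46 at 6 h, a log2 difference of −1.33 that was not called without 0 h replicate 2 (−1.10).

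TPM1 had rising sites on both flanks, and its named distal falls lay within the gene. Of its 22 distal sites, 5 were lower at 72 h and only 2 lay in the gene body, so falls also lay on the flanks. At 72 h, 11 of its 24 sites were higher and 6 lower, 8 and 2 under all 5 scalings. The site 27.0 kb upstream (chr15:63015297-63016179) stood at 0.715 and 0.861 CPM at 0 h, 2.30 and 3.1 after 6 h, and 7.69 and 6.94 after 72 h. The site 68.1 kb from the start (chr15:63110524-63111185), downstream of the gene, stood at 1.62 and 2.06 CPM, then 6.57 and 7.09, then 11.4 and 11.9. Each time point lay above the one before it at both sites. The 72 h differences from 0 h were 3.19 (SE 0.32, edgeR adjusted p = 2.6e-08) and 2.65 (SE 0.25, edgeR adjusted p = 1.3e-08), under all 5 scalings. Nearby sites at 54.5 and 65.6 kb, chosen after their values were seen, reached 12.8 and 14.4 CPM and 9.29 and 11.4 CPM at 72 h, from 2.21 and 4.78 and from 1.56 and 3.25 at 0 h. Their 72 h rises of 1.93 and 2.07 were called under all 5 scalings and became 2.62 and 2.73 without 0 h replicate 2.

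Inside TPM1, 8.8 kb from the start (chr15:63051228-63051779), the level dropped from 9.68 and 16.1 CPM at 0 h to 3.07 and 4.62 at 6 h and 2.04 and 1.04 at 72 h. Both 0 h libraries had a peak there and none of the later 4 did. The fall of 3.07 at 72 h (SE 0.32, edgeR adjusted p = 3.4e-08) held under all 5 scalings. A site at 20.8 kb (chr15:63063253-63063886) stood at 7.80 and 6.74 CPM at 0 h, 1.62 and 1.68 after 6 h, and 3.44 and 2.22 after 72 h. Its log2 difference was −2.13 at 6 h (edgeR adjusted p = 9.6e-06), under all 5 scalings.

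Around zyxin, 3 of 25 sites were higher and 3 lower at 6 h against 0 h, 1 and 1 under all 5 scalings, and at 72 h against 6 h 9 were higher and 5 lower, 7 and 0 under all 5 scalings. The site 39.3 kb upstream, inside CLCN1 (chr7:143341706-143342374), stood at 0.975 and 1.20 CPM at 0 h, 1.71 and 1.83 after 6 h, and 9.5 and 12.01 after 72 h. Only the 72 h libraries had a peak there. The log2 difference was 0.70 at 6 h against 0 h (edgeR adjusted p = 0.11) and 2.59 at 72 h against 6 h (SE 0.27, edgeR adjusted p = 5.4e-07). A site 24.2 kb upstream, inside FAM131B and chosen after its values were seen, stood at 2.47 and 4.06 CPM, then 4.18 and 5.19, then 15.8 and 23.5, and its 72 h against 6 h difference was 2.04 (edgeR adjusted p = 2.6e-06). Both were called at 72 h against 6 h under all 5 scalings.

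Other zyxin sites had other courses. The site 26.2 kb downstream of the start, at EPHA1 (chr7:143407113-143408066), was already up at 6 h, with 1.95 and 3.11 CPM at 0 h, 6.99 and 6.17 after 6 h, and 8.59 and 9.86 after 72 h, a log2 difference of 1.34 at 6 h (edgeR adjusted p = 0.00046) under all 5 scalings. The site at 45.4 kb (chr7:143426369-143427041) was lowest at 6 h, with 6.50 and 9.42 CPM at 0 h, 1.02 and 1.42 after 6 h, and 3.55 and 6.91 after 72 h. Its log2 difference was −2.64 at 6 h against 0 h (SE 0.35, edgeR adjusted p = 3.3e-06) and 2.03 at 72 h against 6 h (edgeR adjusted p = 8.1e-05), each under all 5 scalings. At 72 h against 0 h the difference was −0.61 (edgeR adjusted p = 0.066), and it was called lower under RLE (−0.79), loess offsets (−1.11) and the replicate block (−0.64), and without 0 h replicate 1 (−0.86) or 72 h replicate 2 (−1.17). The named fall inside the gene, at 6.3 kb, went from 1.62 and 5.26 CPM at 0 h to 0.777 and 0.968 at 72 h, and its log2 difference of −2.01 became −0.89, not called, without 0 h replicate 2.

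**Figure D4:**
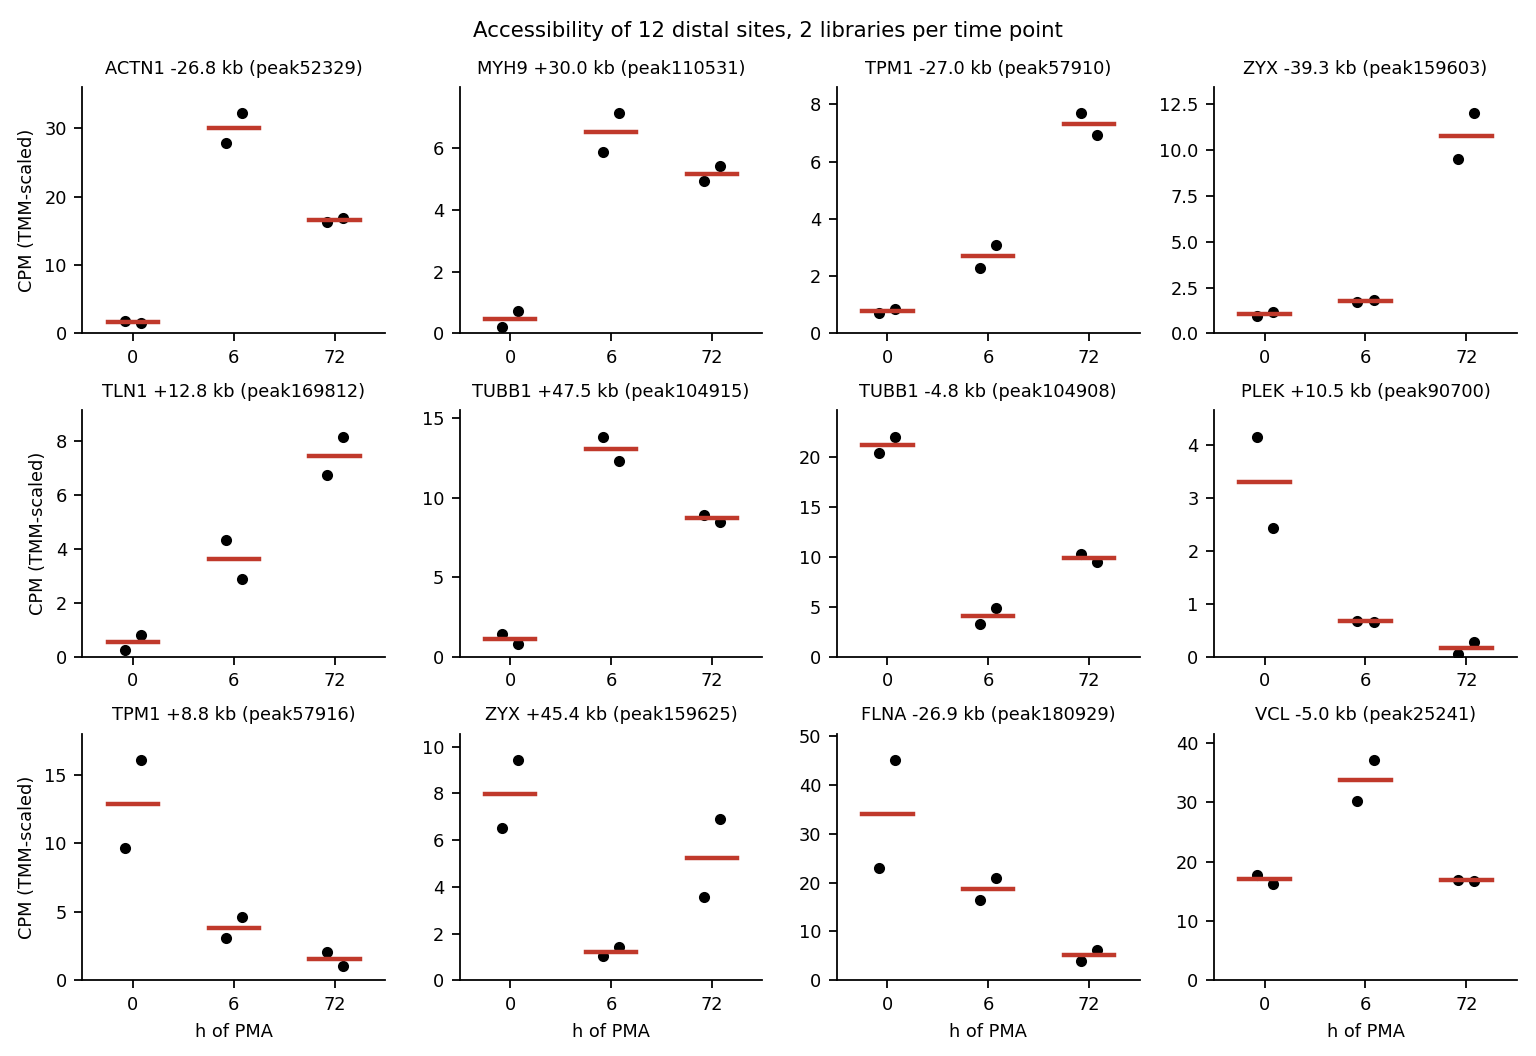
Accessibility of 12 distal sites (CPM of the TMM-scaled library size, vertical axis from 0) by hours of PMA. Points are single libraries, 2 per time point, and red lines are their means; the VCL site was chosen after its values were seen. ACTN1 and TUBB1 (+47.5 kb) peaked at 6 h, TPM1 (−27.0 kb) and TLN1 rose at each step, ZYX (−39.3 kb) rose after 6 h, and PLEK and TPM1 (+8.8 kb) fell.

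Talin had 9 of 23 sites higher and 11 lower at 72 h, 5 and 2 under all 5 scalings. The largest rise was 12.8 kb inside the gene (chr9:35719010-35719730), from 0.260 and 0.813 CPM at 0 h to 4.35 and 2.88 at 6 h and 6.73 and 8.16 at 72 h. The 3 time points did not overlap. The log2 difference was 2.60 at 6 h (edgeR adjusted p = 2.9e-05) and 3.70 at 72 h (SE 0.38, edgeR adjusted p = 3.4e-08), under all 5 scalings, and these became 3.71 and 4.82 without 0 h replicate 2. The strong site named for its fall, at the start of CCDC107 (chr9:35657347-35658995), went from 74.4 and 84.4 CPM at 0 h to 24.5 and 29.0 at 72 h, a log2 difference of −1.57 that was −0.13, not called, under loess offsets. The named fall inside the gene, at 3.8 kb, went from 22.5 and 21.75 CPM at 0 h to 8.53 and 16.9 at 6 h, and its log2 difference of −0.75 was −0.38, not called, without 6 h replicate 1 and −1.43 without replicate 2.

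Vinculin had 34 sites, of which 8 were higher and 3 lower at 6 h, and 9 higher and 17 lower at 72 h. Under all 5 scalings these counts were 7 and 0 at 6 h and 4 and 4 at 72 h. The site 81.7 kb inside the gene (chr10:74079347-74080286) stood at 1.495 and 1.39 CPM at 0 h, 5.54 and 5.22 after 6 h, and 4.30 and 4.53 after 72 h. It rose by 1.90 on the log2 scale at 6 h (edgeR adjusted p = 2.8e-05) and by 1.62 at 72 h (edgeR adjusted p = 5e-05), under all 5 scalings. The site 5.0 kb upstream of the start (chr10:73992633-73993609), chosen after its values were seen, stood at 17.7 and 16.3 CPM at 0 h, 30.3 and 37.0 after 6 h, and 16.8 and 16.8 after 72 h. It was higher at 6 h under all 5 scalings (0.99 under TMM, edgeR adjusted p = 7e-05). At 72 h it was at −0.02, not called, under TMM, and was called higher under total counts (0.48), loess offsets (0.78) and factors from shared peaks (0.95). The site 28.5 kb upstream (chr10:73969502-73969768) fell from 2.27 and 1.67 CPM at 0 h to 0.362 and 0.142 at 72 h, a log2 difference of −2.95 (SE 0.49, edgeR adjusted p = 2e-05), under all 5 scalings, which became −3.75 without 72 h replicate 1.

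The strongest distal site of vinculin lay 153.0 kb from its start, over the starts of ADK and AP3M1 (chr10:74150363-74151770), and went from 81.05 and 60.7 CPM at 0 h to 26.4 and 27.2 at 72 h. Its log2 difference of −1.40 was −0.02, not called, under loess offsets. The site 94.5 kb inside the gene (chr10:74092286-74092886) rose at 6 h, from 0.260 and 0.621 CPM to 1.96 and 3.86, a log2 difference of 2.71 (edgeR adjusted p = 0.00033) that ran from 2.02 to 3.54 as single libraries were left out. Its 72 h libraries stood apart at 1.84 and 0.732 CPM, and the 72 h difference of 1.46 was not called under loess offsets (0.77), without 72 h replicate 1 (0.66) or without 0 h replicate 1 (1.02).

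Filamin lies in a gene-dense stretch of the X chromosome, and its strongest sites belonged to neighbours or to the spaces between genes. At 72 h, 4 of its 22 sites were higher and 11 lower, 3 and 3 under all 5 scalings, and at 72 h against 6 h none was higher and 13 lower, 3 of these under all 5 scalings. The site at the start of EMD, 4.4 kb upstream (chrX:154378397-154379595), fell from 128.7 and 150.0 CPM at 0 h to 37.3 and 36.7 at 72 h, a log2 difference of −1.91 that was −0.07, not called, under loess offsets. The other strong sites nearby also fell on the TMM scale. One 14.6 kb upstream (chrX:154387989-154390527) went from 128.8 and 135.8 CPM at 0 h to 44.9 and 52.5 at 72 h, a log2 difference of −1.44 that became 0.41, called higher, under loess offsets. One 32.5 kb from the start, downstream of the gene (chrX:154341355-154342828), went from 95.2 and 110.8 CPM to 29.0 and 30.4, a difference of −1.80 that was −0.17, not called, under loess offsets. A fall that did not depend on the scaling lay 26.9 kb upstream. This site, at the ends of DNASE1L1 and RPL10 (chrX:154401054-154401979), stood at 23.1 and 45.0 CPM at 0 h, 16.5 and 20.9 after 6 h, and 3.96 and 6.23 after 72 h. This fall of 2.74 at 72 h (SE 0.26, edgeR adjusted p = 1.1e-08) held under all 5 scalings, although the 0 h libraries differed from each other. A downstream site 39.9 kb from the start (chrX:154334270-154335240) rose from 1.17 and 1.15 CPM at 0 h to 5.13 and 6.47 at 72 h, a log2 difference of 2.32 (SE 0.35, edgeR adjusted p = 6e-06) under all 5 scalings. Its 6 h libraries, at 2.39 and 5.28 CPM, differed from each other, and its 6 h call was lost without 6 h replicate 2 (0.99). A site 63.3 kb from the start, inside TKTL1 (chrX:154311018-154311609), was highest at 6 h, with 1.04 and 1.29 CPM at 0 h, 3.75 and 5.16 after 6 h, and 2.15 and 2.48 after 72 h. Its rise of 1.95 at 6 h (edgeR adjusted p = 9.2e-05) was called under all 5 scalings, and its 72 h difference of 0.97 was not called under loess offsets (0.31), without 0 h replicate 1 (0.83) or without 72 h replicate 2 (0.87).

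TUBB1, which marks the platelet lineage, had 5 of 14 sites higher and 7 lower at 72 h, 3 and 3 under all 5 scalings. The site 47.5 kb from the start (chr20:59063526-59064279), between genes, stood at 1.43 and 0.813 CPM at 0 h, 13.8 and 12.3 after 6 h, and 8.90 and 8.47 after 72 h. It rose by 3.57 at 6 h (SE 0.29, edgeR adjusted p = 4e-09) and by 2.99 at 72 h (SE 0.29, edgeR adjusted p = 1.4e-08), under all 5 scalings. The site 4.8 kb upstream (chr20:59011125-59012123) stood at 20.4 and 22.0 CPM at 0 h, 3.24 and 4.84 after 6 h, and 10.2 and 9.51 after 72 h. It was lowest at 6 h and, on the TMM scale, between the other times at 72 h. The log2 difference was −2.34 at 6 h against 0 h (SE 0.22, edgeR adjusted p = 3.6e-08) and 1.24 at 72 h against 6 h (edgeR adjusted p = 0.00012), each under all 5 scalings. Its difference of −1.10 at 72 h against 0 h was not called under factors from shared peaks (−0.13). The site at the start of PRELID3B (chr20:59042134-59043309) fell from 42.8 and 43.4 CPM at 0 h to 15.4 and 13.2 at 72 h, a log2 difference of −1.59 (edgeR adjusted p = 1.8e-08) that was also called under all 5 scalings.

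PLEK sites fell more often than they rose on the TMM scale. At 6 h, 2 of 21 were higher and 7 lower, and at 72 h 3 were higher and 12 lower, 1 and 4 under all 5 scalings. The 72 h shares were 14.3% higher and 57.1% lower, beside 38.2% and 29.2% of all tested sites, a difference that was not tested. The site 10.5 kb inside the gene (chr2:68375476-68376089) stood at 4.16 and 2.44 CPM at 0 h, 0.682 and 0.664 after 6 h, and 0.0518 and 0.283 after 72 h. The 3 time points did not overlap. The log2 difference was −2.28 at 6 h (SE 0.49, edgeR adjusted p = 0.00078) and −4.21 at 72 h (SE 0.53, edgeR adjusted p = 5.1e-07), under all 5 scalings, and the 72 h value became −3.51 without 72 h replicate 1 and −5.85 without replicate 2. A site 12.6 kb upstream (chr2:68352247-68353154), chosen after its values were seen, fell from 8.90 and 11.2 CPM at 0 h to 3.33 and 4.46 at 6 h and 2.54 and 1.79 at 72 h, under all 5 scalings at both times. Against this course, the site at 20.4 kb (chr2:68385392-68385987) rose from 1.04 and 1.00 CPM at 0 h to 3.99 and 4.01 at 72 h, a log2 difference of 1.97 (SE 0.34, edgeR adjusted p = 2.7e-05) under all 5 scalings. The site at 3.6 kb, near the start, stood at 0.715 and 1.96 CPM at 0 h and reached 3.21 and 3.26 at 72 h. Its rise of 1.22 at 72 h lost its call with loess offsets (0.55) and without 0 h replicate 1 (0.71), and was 2.17 without replicate 2.

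**Figure D5:**
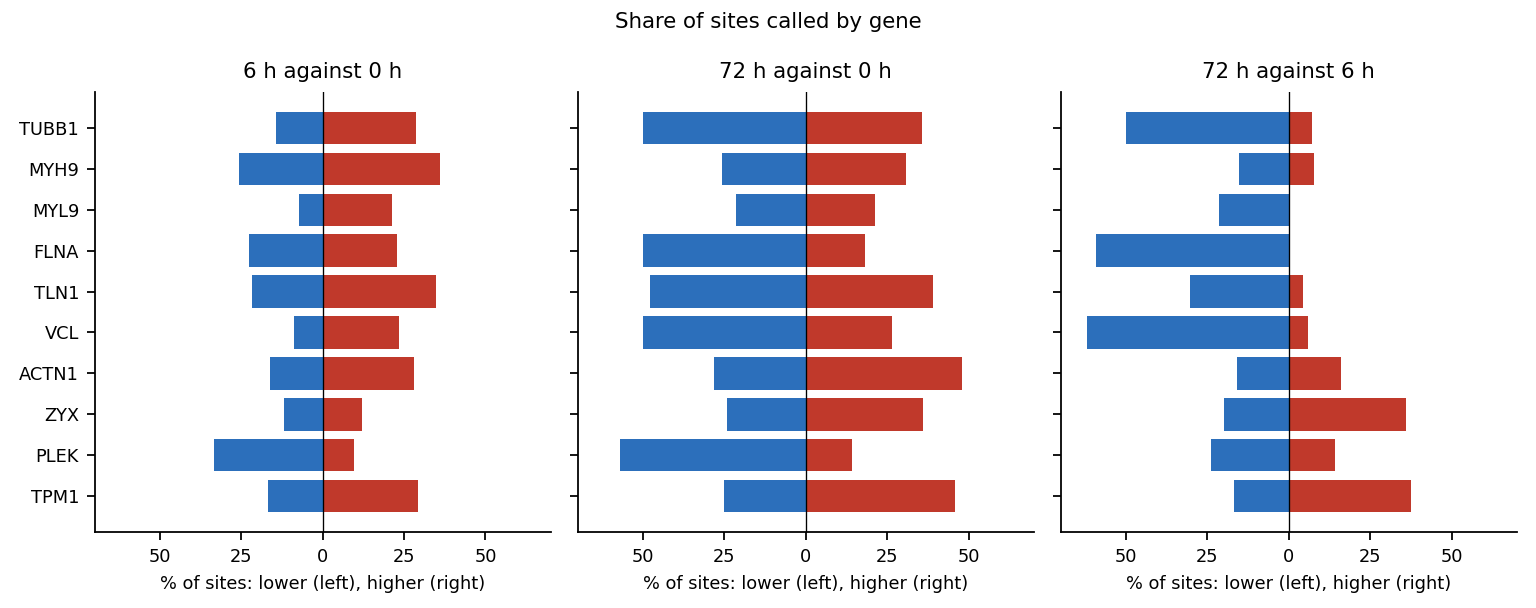
Share of each gene's sites (percent, horizontal axis, both directions from 0) called lower (blue, left) and higher (red, right) on the TMM scale in the 3 comparisons. At 72 h against 0 h, PLEK had 57.1% lower and 14.3% higher and ACTN1 28.0% lower and 48.0% higher. Over all tested sites 29.2% were lower and 38.2% higher. Other scalings moved the split over all members from 37.0% to 79.1% higher among called sites.

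The other actin cytoskeleton and focal adhesion genes served for comparison. The list of 56 genes had 1330 sites outside the windows of the 10 members, 1318 of which were tested. For 72 h against 0 h, 413 were higher and 480 lower (67.8% called, beside 67.4% of all tested sites). For 6 h against 0 h, 336 were higher and 263 lower (45.4%, beside 40.1%). For 72 h against 6 h the counts were 199 and 417 (46.7%, beside 42.9%). On the TMM scale falls thus outnumbered rises at 72 h here too. Under all 5 scalings the balance was the other way, with 294 higher and 150 lower at 72 h against 0 h. In the whole table these shares were 28.0% and 9.39%. The strongest start site was lower at 72 h than at 0 h in 48 of the 49 genes with a listed start, and higher in CALD1 (caldesmon, an actin-binding regulator), on the TMM scale, where 75.7% of all sites at a protein-coding start, and 94.1% of those with peaks in all 6 libraries, were lower. Under loess offsets 20 of the 49 were lower and 9 higher, and CALD1 was not called (0.40). PXN, which encodes the adhesion scaffold paxillin, was the 1 gene of 49 whose strongest start site was higher at 6 h on the TMM scale, while 28 were lower. Among all sites at a protein-coding start, 7.44% were higher and 39.8% lower at 6 h. The 6 h counts of the 49 also moved with the scaling. They were 1 higher and 32 lower under RLE, and 2 and 16 under total counts. Loess offsets gave 7 and 10, and factors from shared peaks 4 and 6.

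The authors' deposited table gives its own log2 fold changes, which differed from those above by a median of −0.16 at 72 h over the member sites, and none of the called sites had the opposite sign at 72 h. For the ACTN1 site 26.8 kb upstream, the authors' deposited table lists a log2 fold change of 4.0 for 6 h and 3.1 for 72 h. The same table puts 21 member sites in its class named upLate, and lists a value below 0 at 72 h for 7 of them. Its class names were therefore not used to sort sites.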

How the data were processed

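ATAC-seq was measured in 6 K562 libraries, 2 each at 0, 6 and 72 h, grouped by the labels. Per the submitters' processing notes, the tools included Trim Galore 0.4.3, BWA 0.7.17, SAMtools 1.9, deepTools 3.0.1, MACS2, bedtools 2.26 and DESeq, with hg38; their settings are not given in the sources used here. The authors deposited a count per site and library, treated as raw counts because the whole numbers sum to different totals. The deposited table also holds log2 fold changes and 1 adjusted p-value per site that repeats in both columns. The deposited peak lists, 1 per library, give a score, a fold enrichment and −log10 p and q values; only their positions were used, with an overlap of at least 1 base.

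Counts were fitted with edgeR 4.0.16 in R 4.3.3 (TMM, filterByExpr with a minimum count of 10, quasi-likelihood F test, the 3 time groups, all 6 libraries), and p-values were adjusted by Benjamini-Hochberg over all 177759 tested sites. The filter removed 3376 sites. SE is the absolute log2 difference divided by the square root of F. The biological coefficient of variation was 0.166. The labels do not say that the 2 libraries of a time point came from separate cultures, so p-values measure the spread between these libraries. Replicates differed by more than sampling noise (chi-square per degree of freedom 3.54 to 5.52). Alternatives were RLE, total counts, loess offsets (limma 3.58.1 and edgeR), factors from shared peaks, no filter, DESeq2 1.42.0, a replicate block, leaving out each library, a stricter threshold, and other reaches and promoter windows.

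Gene bodies came from a RefSeq table of GRCh38.p14, and starts and strands from a RefSeq promoter table, which is not complete; the strand of MYL9 was added from general knowledge. Exons were not used here. Distances run from the gene start to the middle of a site. The sites named are all promoter sites; for each member, the distal sites with the largest called rise and fall at 6 h and at 72 h against 0 h, with a mean of at least 1 CPM and no overlap between the groups; the 5 distal sites of highest mean CPM; and 8 sites chosen after their values were seen. The distal TUBB1 sites nearest its starts are also given, and are not among the named results counted below. The members and lists were chosen with earlier results of these data known.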

Additional observations from a re-analysis of the deposited data

How the results depend on the processing

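The shares of member sites called changed were 43.6% at 6 h against 0 h, 69.3% at 72 h against 0 h and 44.4% at 72 h against 6 h. The alternatives below are those that moved a share by more than 1.5 times, except that the ranges with 1 library left out are given in full. The cause was not tested. With the stricter threshold (adjusted p under 0.01 and absolute log2 difference above 1), which by its construction calls fewer sites, the shares were 27.0% at 6 h and 21.6% at 72 h against 6 h for all sites, 27.8% and 21.3% for distal sites, and 9.09% and 27.3% for promoter sites. Leaving out 1 library at a time gave 32.8% to 44.4%, 55.6% to 71.8% and 25.7% to 46.9% for all sites in the 3 comparisons, and 24.3% to 46.1% for distal sites at 72 h against 6 h. Of these, only the fits without a 72 h library, at 72 h against 6 h, moved a share by more than 1.5 times. For promoter sites at 6 h, the main 36.4% became 18.2% under loess offsets, 9.09% under factors from shared peaks and 60.0% of 10 sites with DESeq2. At 72 h the promoter share of 72.7% became 27.3% under loess offsets, and at 72 h against 6 h 63.6% became 9.09%. No alternative moved the distal shares at 72 h against 0 h by that much, nor did other reaches, promoter windows or the absence of the filter.

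Of 2144 alternative values for the 165 results of named sites, 1932 kept their side of the threshold (uncalled values whose sign changed are counted there). A further 150 were no longer called, 37 became called and 25 changed sign. The 25 include lost calls, that is values not called with the new sign, and these are not among the 150. Under loess offsets the changed signs at 6 h were FLNA at EMD 0.12, FLNA 14.6 kb upstream 0.23, the VCL start 0.04 and ZYX 0.53. Of these only ZYX was called with the new sign. At 72 h they were FLNA 14.6 kb upstream 0.41, TLN1 0.09, the VCL start 0.25, VCL 5.0 kb upstream 0.78 and ZYX 0.61. The TLN1 and VCL start values were not called. At 72 h against 6 h they were MYH9 0.06, FLNA 14.6 kb upstream 0.18, CCDC107 0.03 and ZYX 0.08. Around VCL they were 0.21 at the start, 0.06 at the inner site and 0.11 at 153.0 kb. None of these values at 72 h against 6 h was called. Under factors from shared peaks the changed signs at 72 h were MYL9 0.72 and VCL 5.0 kb upstream 0.95, both called. At 72 h against 6 h, MYH9 19.3 kb 0.50 and 23.1 kb 0.55 and ACTN1 28.0 kb 0.51 were called with the new sign. TUBB1 47.5 kb 0.09, the inner VCL site 0.07 and ACTN1 8.6 kb upstream 0.00 were not called. Total counts turned VCL 5.0 kb upstream at 72 h to 0.48, called higher.

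The labels give replicate numbers 1 and 2 at each time without saying that a number marks a shared culture or day. The replicate differences of 2 time points correlated at 0.131, 0.0762 and 0.118 over sites, so the numbers are not taken as pairs. With the replicate number as a block, 47.7%, 69.7% and 44.0% of member sites were called in the 3 comparisons, as were 54.5%, 72.7% and 63.6% of promoter sites and 47.4%, 69.6% and 43.0% of distal sites. Depth limits the faint sites most: the 0 h libraries held 2 and 3 counts at the ACTN1 site 35.7 kb upstream.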
